A study of Homo sapiens with 42 samples.

Results

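Chromatin accessibility was examined at the genes of the BET and P-TEFb circuit in 4 EGFR-mutant lung adenocarcinoma cell lines. The members were 9 genes: BRD2 and BRD3 of the BET family, the P-TEFb inhibitors HEXIM1 and HEXIM2, the kinase CDK9, its cyclins CCNT1 and CCNT2, the 7SK RNA-binding protein LARP7, and the serine protease inhibitor SERPINI1. Every region whose gene symbol in the authors' annotation was one of these was taken, which gave 81 of 242490 annotated regions over the 4 lines, at 33 distinct places in the genome. PC9 contributed 28 of 69565, H1975 21 of 76952, HCC827 9 of 30709 and HCC2935 23 of 65264. BRD2 had no region in any line and is not analysed here. Among the other 8 genes, HEXIM1 had 20 regions, BRD3 19, LARP7 12, HEXIM2 10, CDK9 7, SERPINI1 5, and CCNT1 and CCNT2 4 each. By the authors' annotation 65 of the 81 lay within 3 kb of a transcript start.

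The 42 libraries were ATAC-seq, which counts sequenced fragments from DNA that a transposase could reach, in 14 groups of 3. The persister group (DTP) of each line received 500 nM of osimertinib, an EGFR inhibitor, over 24 days. In the sequential combination (combo), 21 days of osimertinib at 500 nM came before 3 days of AZD5153 at 150 nM, and it is not stated in the labels if osimertinib stayed on in those days. AZD5153 is a bivalent inhibitor of BET bromodomains. Control cells (DMSO) spent 21 days without drug and 3 days in vehicle. PC9 and H1975 also had a group given AZD5153 alone, at 150 nM over 3 days after 21 days without drug, which HCC827 and HCC2935 lacked. All groups of a line were the same established line, so that the cells of a DTP or combo group are those left after the long treatment.

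Library totals over all counted regions ran from 3989287 to 5193390 in PC9, 6200672 to 10062505 in H1975, 1724680 to 4242868 in HCC827 and 3968690 to 8066287 in HCC2935. Replicates of PC9 differed by no more than counting error: pairs of replicates had 0.950 to 1.03 times the variance of pure counting, and in H1975 0.963 to 1.27 times. The labels call the triplicates biological, but p-values in these 2 lines then rest on little more than counting error, and counts of called members are also given with the 3 libraries of a group summed to 1 sample. The ratio was 1.17 to 1.82 in HCC2935 and 1.20 to 9.23 in HCC827, where the third library of every group stood apart. Epithelial marker genes had an accessible promoter region in 20 of 20 combinations of gene and line (13.5 to 44.2 CPM, reads scaled to a common library size). Those of leukocytes had one in 2 of 12 (4.19 and 7.88 CPM, both CD3E), endothelial cells in 6 of 8 (3.95 to 21.1) and fibroblasts in 3 of 8 (3.63 to 10.1). The median promoter region stood at 14.7 to 21.2 CPM across the lines. Some markers lay on the other side of it. The endothelial gene CDH5 had 21.1 CPM in HCC2935, where the median was 14.7. The epithelial genes KRT18 in H1975 (13.5 against a median of 15.5) and EPCAM in HCC827 (21.1 against 21.2) lay below it.

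P-TEFb is the complex of CDK9 with cyclin T1 or T2, which phosphorylates RNA polymerase II and its pausing factors and so releases polymerase from the promoter. Much of it is held inactive on the 7SK small nuclear RNA by HEXIM1 or HEXIM2, and LARP7 is the protein that keeps 7SK stable. BET proteins bind acetylated histones through their bromodomains and help to recruit active P-TEFb to chromatin. BET inhibitors release P-TEFb from 7SK, and the HEXIM1 transcript is widely used as a readout of exposure to these drugs. SERPINI1 encodes neuroserpin and shares a divergent promoter with PDCD10.

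The promoters at which the start regions lay are shown because the drug comparisons turn on how little or how much these sites moved. Each is the sequence upstream of the RefSeq start (GRCh38.p14), read 5′ to 3′ on the strand of the gene, without bases of a neighbouring gene. Capitals mark matches on either strand to the TATA box letters TATAAA, the CCAAT box CCAAT, the GC box GGGCGG, the E-box CACGTG, the ETS motif CCGGAAG or the cyclic AMP response element TGACGTCA, and no matches share bases. The HEXIM1 window is chr17:45148225-45148474 on the plus strand, LARP7 chr4:112636910-112637142 on the plus strand, CCNT1 chr12:48716708-48716957 on the minus strand, and SERPINI1 chr3:167735471-167735720 on the plus strand.
HEXIM1: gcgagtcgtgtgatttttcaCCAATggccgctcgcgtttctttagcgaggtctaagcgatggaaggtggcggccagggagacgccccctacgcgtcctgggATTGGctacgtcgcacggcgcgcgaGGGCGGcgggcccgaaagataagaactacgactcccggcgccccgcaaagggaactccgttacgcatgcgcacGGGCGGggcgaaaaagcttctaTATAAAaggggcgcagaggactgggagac
LARP7: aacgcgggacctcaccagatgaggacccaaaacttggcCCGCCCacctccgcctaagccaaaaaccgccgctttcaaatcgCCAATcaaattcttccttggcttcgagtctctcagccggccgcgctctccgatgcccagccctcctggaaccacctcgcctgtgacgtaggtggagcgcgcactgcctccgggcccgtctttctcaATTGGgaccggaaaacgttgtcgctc
CCNT1: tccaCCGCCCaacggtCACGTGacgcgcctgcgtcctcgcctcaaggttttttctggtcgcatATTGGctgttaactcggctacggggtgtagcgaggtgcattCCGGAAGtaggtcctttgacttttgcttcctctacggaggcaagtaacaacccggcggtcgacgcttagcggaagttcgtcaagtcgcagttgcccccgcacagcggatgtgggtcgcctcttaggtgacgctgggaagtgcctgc
SERPINI1: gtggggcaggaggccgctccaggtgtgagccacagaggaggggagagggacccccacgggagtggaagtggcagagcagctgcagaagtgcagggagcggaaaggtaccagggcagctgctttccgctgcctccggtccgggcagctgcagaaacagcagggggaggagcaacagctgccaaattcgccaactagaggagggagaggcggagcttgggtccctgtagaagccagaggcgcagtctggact

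HEXIM1 held a TATA box that began 29 bases before the start, with 2 CCAAT boxes and 2 GC boxes behind it. Each motif was also searched, at any place and on either strand, in the 34943 promoter windows of this length in RefSeq. The letters TATAAA were found in 10.8% of them, a CCAAT box in 32% and a GC box in 42.5%. LARP7 held 2 CCAAT boxes and 1 GC box, and CCNT1 held 1 of each with an E-box (6.32% of windows) and an ETS motif (8.48%). No match was found in the SERPINI1 window, and the response element (1.63% of windows) was in none of the 4. GC content was 62.4% for HEXIM1, 60.9% for LARP7, 59.2% for CCNT1 and 64.8% for SERPINI1. The start regions of HEXIM1, LARP7 and CCNT1 covered the whole window in all 4 lines, and that of SERPINI1 in 3 of 4.

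For each gene and line, the start region was the promoter region with the highest mean count, and all other regions of the gene were read beside it. Regions were all of the same width, so CPM can be compared between them. Levels are in CPM on library sizes scaled by TMM, and changes are log2 fold changes ± SE from edgeR's quasi-likelihood test over all regions of a line, with a call where p after Benjamini-Hochberg adjustment was under 0.05. In bulk libraries, a change in accessibility per cell and a change in the share of cells with an open site cannot be told apart. DTP against DMSO and AZD5153 against DMSO share the DMSO libraries, and DTP against DMSO and combo against DTP share the DTP libraries.

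Across the members, the start regions had a smaller median size of change than the other regions in DTP against DMSO in PC9, H1975 and HCC2935 and with AZD5153 alone, but not in every comparison. In PC9, no start region of 8 was called between DTP and DMSO and their changes lay between -0.19 and 0.25. Of the 20 other regions 11 were called, between -1.67 and 1.67, beside 15.4% of all tested regions higher and 16.4% lower. The median size of change was 0.10 at the start regions and 0.73 at the others. In H1975 the medians were 0.18 over 8 start regions and 0.57 over 13 others, and in HCC2935 0.15 over 7 and 0.42 over 16. With AZD5153 alone they were 0.22 and 0.43 in PC9 and 0.16 and 0.53 in H1975. In combo against DTP they were 0.20 and 0.30 in PC9, 0.26 and 0.24 in H1975 and 0.16 and 0.20 in HCC2935, and in HCC827 0.12 and 0.09 in DTP against DMSO. In H1975, 4 of 8 start regions were called in DTP against DMSO, where 24.9% of all regions were higher and 27.0% lower. In combo against DTP 4 of 8 were called there, beside 11.5% and 9.48% of all regions. With libraries summed, 0 start regions and 7 others were called in DTP against DMSO in PC9, 1 and 3 in H1975, and none of either kind in combo against DTP in H1975. The start regions have more counts and hence smaller errors, and no test was made between the 2 kinds of region.

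**Figure D1:**
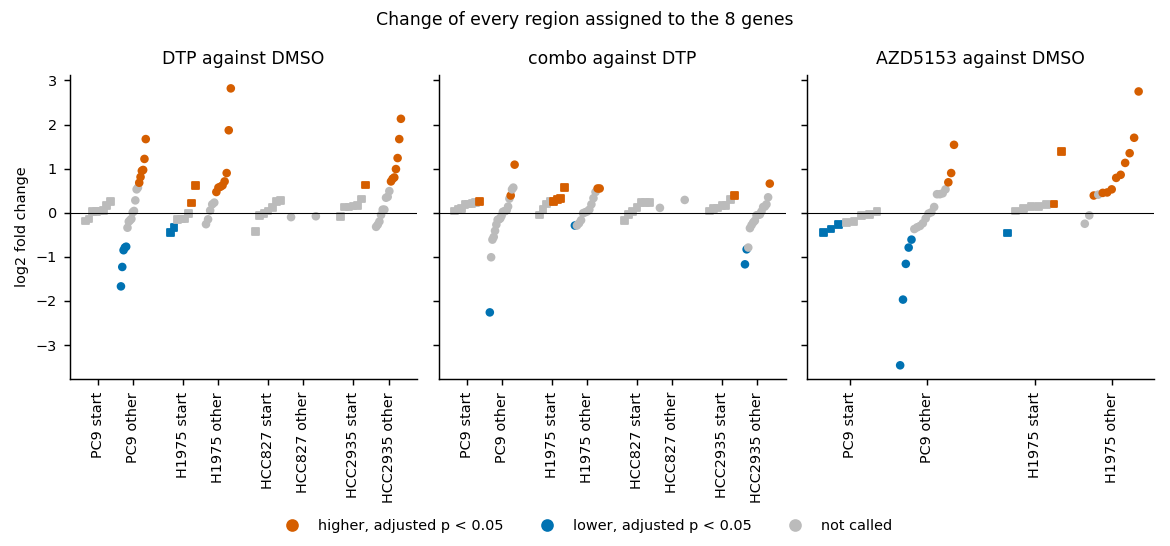
Log2 fold change of every region assigned to the 8 genes in DTP against DMSO, combo against DTP and AZD5153 against DMSO (vertical axis), by line, with start regions as squares and other regions as circles, and regions sorted by value within each column. Start regions of PC9 lie between -0.19 and 0.25 in DTP against DMSO, and the other regions of PC9 reach from -1.67 to 1.67. Orange and blue mark calls at an adjusted p under 0.05.

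In the persister comparison, 6 of the 28 PC9 regions were called higher and 5 lower, beside 15.4% and 16.4% of all 126506 tested regions, and with libraries summed 7 were called (16.8% of all). In H1975, 10 of 21 were higher and 2 lower, beside 24.9% and 27.0% of 191202 tested, and 4 were called with libraries summed (33.6%). In HCC2935, 8 of 23 were higher and none lower, beside 18.7% and 18.6% of 154179 tested, and 6 were called with libraries summed (28.2%). The median change over the members was 0.04 in PC9, 0.22 in H1975 and 0.31 in HCC2935, where all tested regions had medians of 0.01, 0.02 and -0.01. With libraries summed, the members' share thus lay above that of all regions in PC9, below it in H1975 and near it in HCC2935, and these differences were not tested.

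When AZD5153 followed osimertinib, 3 of 28 PC9 regions were higher and 1 lower than in DTP (10.6% and 11.7% of all), with 2 called when libraries were summed (6.18%). In H1975, 6 of 21 were higher and 1 lower (11.5% and 9.48%), and none was called with libraries summed (2.44%), while on the separate libraries edgeR gave 12 members an unadjusted p under 0.05 and DESeq2 called 2. In HCC2935, 2 of 23 were higher and 2 lower (1.9% and 6.40%), with 1 called when libraries were summed (3.54%). AZD5153 alone went with 3 higher and 8 lower regions of 28 in PC9 (11.2% and 14.6%, 4 with libraries summed against 12%). In H1975 it went with 12 higher and 1 lower of 21 (26.7% and 31.4%). With the medians of 10 Mb stretches removed, 8 of these 13 calls were kept. In combo against DTP in H1975, 61403 of all 191202 tested regions had an unadjusted p under 0.05 in edgeR. DESeq2 called 16775 regions in that comparison.

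BRD3 encodes a BET protein and lies on the minus strand of chromosome 9. Its start region (chr9:134067830-134068331 in PC9) was not called in any comparison of any line. Mean levels lay between 19.4 ± 3.05 (SD, n = 3) CPM in H1975 DTP cells and 30.3 ± 3.25 in HCC2935 combo cells. In H1975 with AZD5153 alone its change was 0.18 ± 0.098 while the tested regions of its 10 Mb stretch had a median of 0.69. It turned to -0.43 (adjusted p = 0.000225) when the medians of such stretches were removed.

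A second BRD3 region, inside the gene, had the highest persister change of all members in H1975 and HCC2935. The authors' annotation places it at the start of a short BRD3 transcript (chr9:134055947-134056448 in PC9), and by RefSeq it lies within both BRD3 and the noncoding gene LOC100130548. In PC9 it stood at 8.26, 12.2 and 13.1 CPM in DMSO and at 22.1, 20.6 and 23.5 in DTP. AZD5153 alone left it at 4.31, 5.80 and 5.16, and the combo libraries were at 22.2, 18 and 19.2. The 3 DTP libraries were thus all above DMSO and the 3 AZD5153 libraries all below it, with changes of 0.95 ± 0.150 (adjusted p = 1.14e-08) and -1.16 ± 0.212 (adjusted p = 1.24e-06). Adding AZD5153 to the persisters moved it by -0.15 ± 0.129 (adjusted p = 0.424), with overlapping libraries.

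H1975 showed the same region at 3.71, 4.98 and 4.45 CPM in DMSO and at 27.6, 33.7 and 32 in DTP. This is a 7.06-fold difference in the fit (2.82 ± 0.130, adjusted p = 9.05e-56). AZD5153 alone took it up here, to 14.6, 15.2 and 13.7 CPM (1.70 ± 0.158, adjusted p = 4.21e-21) whereas it went down in PC9, and the difference between the lines was not tested. Its 10 Mb stretch had a median change of 0.69 with AZD5153 alone, and the change with stretch medians removed was 1.10 (adjusted p = 6.25e-09). The combo libraries, at 25.2, 24.4 and 27.0, lay slightly below DTP (-0.29 ± 0.084, adjusted p = 0.00648), a call lost under 8 of 14 alternatives, among them leaving out DTP replicate 2 or 3 or combo replicate 1 or 2 (adjusted p = 0.0557 to 0.101). In HCC2935 the region stood at 5.90, 5.02 and 11.6 CPM in DMSO, at 35.7, 31.3 and 29.2 in DTP and at 27.9, 27.1 and 20.1 in combo. The persister change was 2.13 ± 0.192 (adjusted p = 3.48e-12), and it kept a size of at least 1.95 in all 14 alternatives. The third DMSO library was the highest of its group but still under every DTP library. In HCC827 no region covered this place, and the nearest BRD3 region, at a distance of -447 bases from the start of the short transcript, had 2.53 to 16.5 CPM, with the third library of every group the lowest.

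Further BRD3 regions also differed between groups. A region 1845 bases inside the gene in PC9 (chr9:134065680-134066181) had a mean of 7.55 ± 1.07 CPM in DMSO and 10.3 ± 2.29 with AZD5153 alone (0.44 ± 0.198, adjusted p = 0.090). In H1975 the matching region was called higher in DTP (0.71 ± 0.246), in combo against DTP (0.55 ± 0.191) and with AZD5153 alone (1.13 ± 0.236). With stretch medians removed the last was 0.53 (adjusted p = 0.0522), and with libraries summed the adjusted p was 0.130, 0.428 and 0.00567 in that order. Next to the start region, the region at 134068353 rose in HCC2935 DTP cells from 7.86, 6.20 and 10.0 to 12.3, 14.6 and 13.9 CPM (0.77 ± 0.205, adjusted p = 0.00258).

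HEXIM1, the inhibitor whose transcript is used as a BET inhibitor readout, had its start region at chr17:45148058-45148559 in PC9, over the TATA box printed above. PC9 had 35.3, 33.2 and 34.2 CPM in DMSO, 40.1, 36.9 and 38.3 in DTP, 36.9, 34.1 and 32.8 with AZD5153 alone and 46.3, 45.6 and 45.6 in combo. All combo libraries lay above all DTP libraries, by 0.25 ± 0.091 (adjusted p = 0.0301, 1.19-fold), and the AZD5153 libraries overlapped DMSO (0.02 ± 0.1, adjusted p = 0.926). The combo call did not hold with libraries summed (adjusted p = 0.459), with DESeq2 (0.153), with library size only (0.094) or without DTP replicate 2 (0.106), DTP replicate 3 (0.0651) or combo replicate 1 (0.0708).

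In H1975 the HEXIM1 start region fell in persisters, from 30.8, 31.3 and 24.4 CPM in DMSO to 20.3, 21.2 and 22.1 in DTP (-0.44 ± 0.092, adjusted p = 1.5e-05). AZD5153 libraries were at 33.7, 30.7 and 30.9 and combo libraries at 29.0, 24.8 and 26.5. Combo thus lay above DTP in every library (0.33 ± 0.091, adjusted p = 0.00337), and AZD5153 alone overlapped DMSO (0.14 ± 0.087, adjusted p = 0.146). The persister call held in all 14 alternatives, at -0.55 to -0.24, and the combo call was lost with libraries summed (adjusted p = 0.409) and without combo replicate 1 (0.0702). With library size only, the change with AZD5153 alone was 0.37 (adjusted p = 3.11e-05). That scaling moved the median of all H1975 regions by 0.22.

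HCC2935 had 44.3, 44.0 and 36.0 CPM at the HEXIM1 start in DMSO, 42.2, 48.6 and 46.2 in DTP and 37.9, 49.2 and 58.8 in combo, and HCC827 had 34.9, 43.2 and 50.2, then 47.3, 50.3 and 42.1, then 34.9, 60.8 and 56.0. The groups overlapped in both lines and neither comparison was called. Within PC9 the order of mean levels was combo (45.8 ± 0.439), DTP (38.4 ± 1.62), AZD5153 (34.6 ± 2.05) and DMSO (34.2 ± 1.03), of which DTP against DMSO was not called (adjusted p = 0.187). Within H1975 it was AZD5153 (31.7 ± 1.67), DMSO (28.8 ± 3.85), combo (26.8 ± 2.11) and DTP (21.2 ± 0.854).

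**Figure D2:**
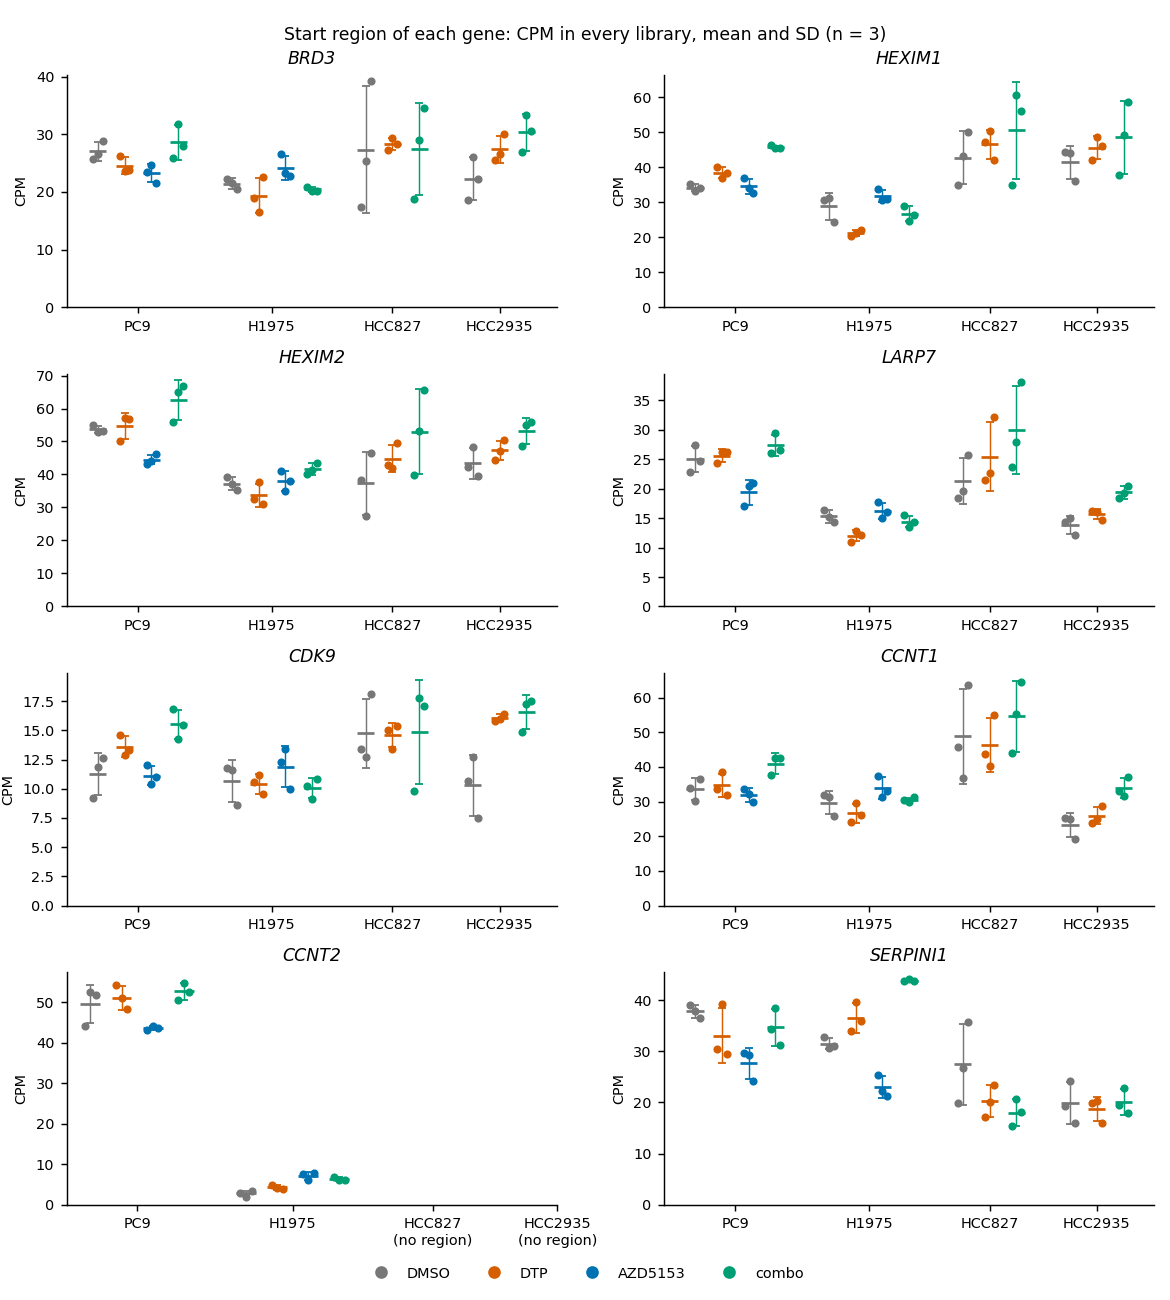
CPM at the start region of each gene (vertical axis, from 0) in every library, for 8 genes in PC9 and H1975 and 7 in HCC827 and HCC2935, where CCNT2 had no start region, by line and group, with group means as bars and SD as whiskers (n = 3). The HEXIM1 start region of H1975 shows the 3 DTP libraries (20.3 to 22.1) under all DMSO libraries (24.4 to 31.3), and SERPINI1 in H1975 the AZD5153 libraries (21.2 to 25.4) at the bottom and combo (43.7 to 44.1) at the top.

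Around HEXIM1, PC9 had regions upstream and downstream that moved on their own. A region 1.54 kb upstream of the start rose from 9.21, 10.1 and 10.7 CPM in DMSO to 17.7, 20.9 and 14.5 in DTP (0.81 ± 0.164, adjusted p = 1.20e-05), and it reached 21.5, 25.2 and 22.9 in combo (0.39 ± 0.132 against DTP, adjusted p = 0.0204). With AZD5153 alone it overlapped DMSO at 10.1, 7.88 and 9.62. Its combo call was lost under settings that included DESeq2, libraries summed and leaving out DTP replicate 3. The matching region of HCC2935 also rose in DTP, from 3.06, 3.84 and 6.57 to 7.22, 7.28 and 6.87 (0.71 ± 0.271, adjusted p = 0.0337; 0.0934 with stretch medians removed). A region 4.07 kb upstream, at the 3′ end of the neighbour ACBD4, rose in PC9 DTP cells from 1.91, 3.04 and 1.98 to 5.10, 5.41 and 6.01 CPM (1.22 ± 0.314, adjusted p = 0.000763). It was also higher with AZD5153 alone, at 5.74, 3.25 and 4.22 (0.90 ± 0.328, adjusted p = 0.0277, 0.149 with libraries summed). No library of PC9 DMSO had a deposited peak there, and all 3 of DTP did.

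The region over the HEXIM1 3′ UTR (chr17:45151947-45152448 in PC9) moved in both drug settings. DMSO libraries were at 6.35, 6.08 and 6.20 CPM and DTP libraries at 3.16, 2.58 and 5.01, all lower (-0.79 ± 0.273, adjusted p = 0.0171). AZD5153 alone raised it to 8.61, 9.97 and 11.5 (0.69 ± 0.210, adjusted p = 0.00652), and combo libraries, at 8.29, 7.16 and 7.46, were above all DTP libraries (1.09 ± 0.257, adjusted p = 0.000436). The combo difference was called in all 14 alternatives. The persister difference was lost with DESeq2 (adjusted p = 0.0665), with libraries summed (0.119) and without DTP replicate 1 (0.0783) or 2 (0.130). In H1975 the region ran the other way in DTP (0.62 ± 0.217, adjusted p = 0.0107, libraries overlapping), and in HCC2935 it was not called. A region 0.85 kb downstream of the start in H1975 rose with AZD5153 alone from 5.88, 6.59 and 7.01 to 11, 11.7 and 12.8 CPM (0.86 ± 0.150, adjusted p = 1.46e-07).

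HEXIM2, the paralog of HEXIM1, lies further along chromosome 17. Its start region (chr17:45161597-45162098 in PC9) was among the strongest of the members. It stood at 55, 53.0 and 53.1 CPM in PC9 DMSO and at 50.1, 57.0 and 56.8 in DTP. With AZD5153 alone all libraries were lower, at 43.3, 44.1 and 46.2 (-0.27 ± 0.084, adjusted p = 0.00942), while combo was at 55.8, 65.0 and 66.9 (0.19 ± 0.078 against DTP, adjusted p = 0.056). The AZD5153 call was lost with libraries summed (adjusted p = 0.415), DESeq2 (0.083), no filter on low counts (0.487) and without AZD5153 replicate 1 (0.0724) or 2 (0.0503). In H1975, combo (40.0, 41.3 and 43.6) lay above DTP (32.5, 37.7 and 31.1) by 0.30 ± 0.075 (adjusted p = 0.00108, 0.415 with libraries summed), and AZD5153 alone (41.0, 35 and 38.0) overlapped DMSO (39.3, 37.1 and 35.2). HCC2935 and HCC827 had no call there, with means of 37.4 to 53.2 CPM.

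A weaker HEXIM2 region on the HEXIM1 side of the start region (chr17:45160842-45161343 in PC9), named the upstream region here, rose with either drug. The name is relative to the start region and not to the gene. By RefSeq the region lies inside HEXIM2, and also inside the noncoding gene HEXIM2-AS1. The authors' annotation places it over the start of a HEXIM2 transcript. DMSO cells of PC9 had 2.86, 2.54 and 2.23 CPM. DTP libraries had 9.23, 7.22 and 7.76 (1.67 ± 0.280, adjusted p = 8.30e-08) and AZD5153 libraries 7.66, 6.72 and 7.74 (1.54 ± 0.284, adjusted p = 1.57e-06). In both treated groups every library was above every DMSO library, and each call held in all 14 alternatives. Combo libraries, at 10.7, 7.42 and 8.52, overlapped DTP (0.14 ± 0.202, adjusted p = 0.658).

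H1975 gave a like set of levels at this HEXIM2 region, with 0.619, 1.88 and 1.35 CPM in DMSO, 6.53, 3.63 and 4.59 in DTP, 9.29, 8.71 and 8.67 with AZD5153 alone and 8.0, 6.86 and 6.53 in combo. The change with AZD5153 alone was the highest of any member in that comparison, at 6.70-fold (2.75 ± 0.240, adjusted p = 3.70e-23), with 28 reads summed over DMSO and 198 over AZD5153. The persister change was 1.87 ± 0.271 (adjusted p = 3.86e-10) and the combo change 0.55 ± 0.173 (adjusted p = 0.0127, 0.39 with libraries summed). In HCC2935 it rose from 4.59, 2.95 and 2.19 in DMSO to 6.84, 7.44 and 5.92 in DTP (0.99 ± 0.281, adjusted p = 0.00458) and to 11.3, 10.1 and 10.7 in combo (0.66 ± 0.210, adjusted p = 0.0402). The last call was lost without any one of the 6 libraries (adjusted p = 0.0651 to 0.131).

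**Figure D3:**
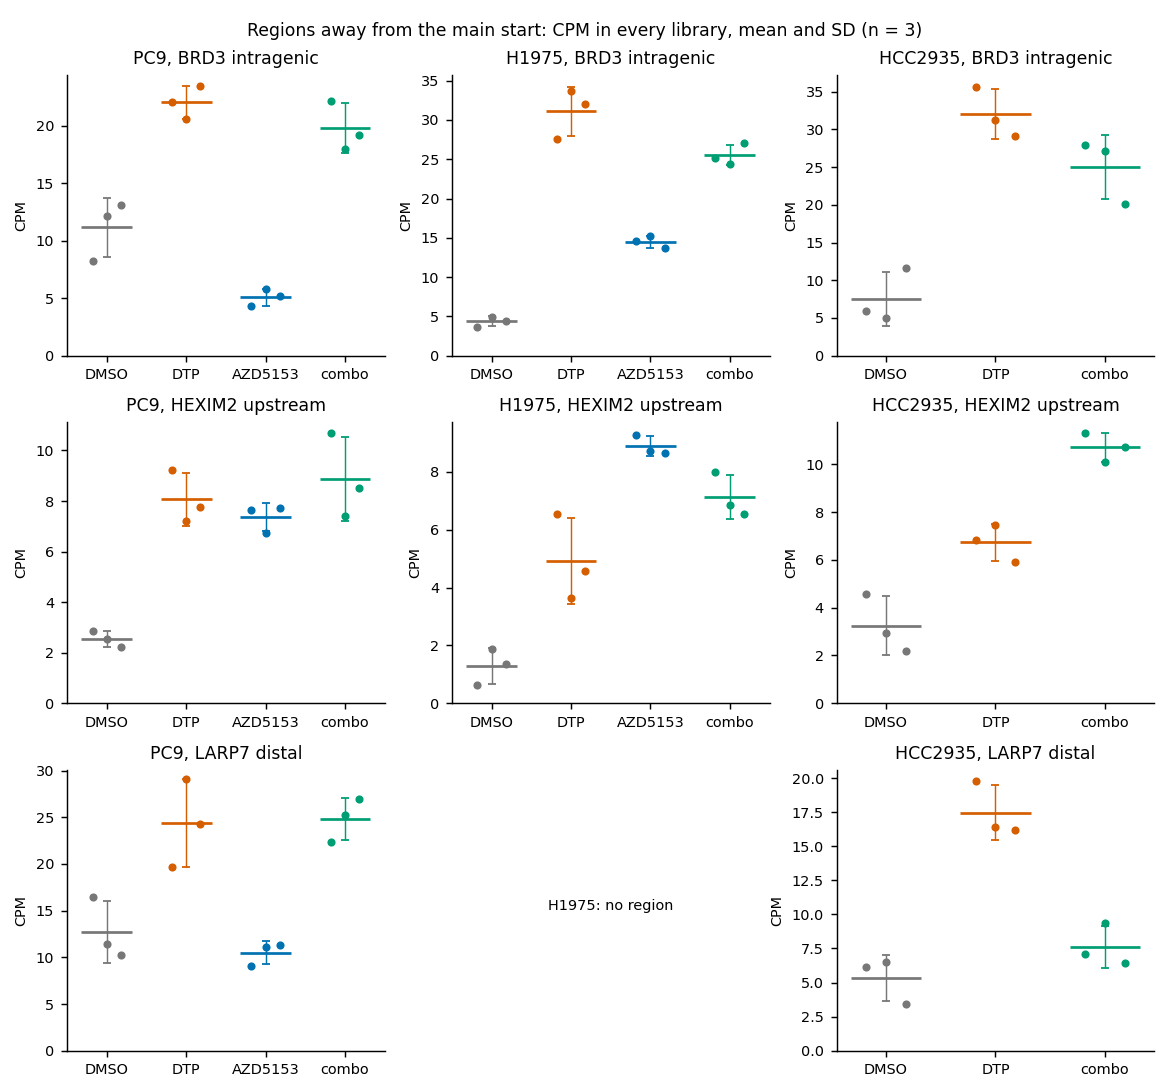
CPM (vertical axis, from 0, with its own scale in each panel) in every library at 3 regions away from the main starts, in PC9, H1975 and HCC2935, with mean and SD (n = 3). At the intragenic BRD3 region AZD5153 alone lies under DMSO in PC9 (4.31 to 5.80 against 8.26 to 13.1) and over it in H1975 (13.7 to 15.2 against 3.71 to 4.98), and at the HEXIM2 upstream region DMSO is the lowest group in all 3 lines. H1975 has no region at the distal LARP7 site.

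Between HEXIM1 and HEXIM2, PC9 lost accessibility with AZD5153 alone. The region 9.95 kb from the HEXIM1 start (chr17:45158176-45158677) held 6.99, 7.61 and 9.43 CPM in DMSO, 4.86, 2.84 and 2.50 in DTP, 1.17 or less in each AZD5153 library and 2.93, 1.86 and 1.86 in combo. Its counts summed to 90 reads in DMSO and 9 with AZD5153 alone, a change of -3.46 ± 0.371 (adjusted p = 1.37e-17), and the persister change was -1.23 ± 0.262 (adjusted p = 3.22e-05). The region 7.22 kb from the start fell likewise, from 5.08, 4.31 and 6.45 CPM to 1.20, 1.86 and 0.938 with AZD5153 alone (-1.97 ± 0.358, adjusted p = 1.10e-06). In HCC2935, which has no group with AZD5153 alone, the first of these places had 11.8, 10.8 and 12.4 CPM in DTP and 5.76, 7.06 and 6.64 in combo (-0.83 ± 0.195, adjusted p = 0.00371; 0.0677 with libraries summed). H1975 had no region at either place.

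**Figure D4:**
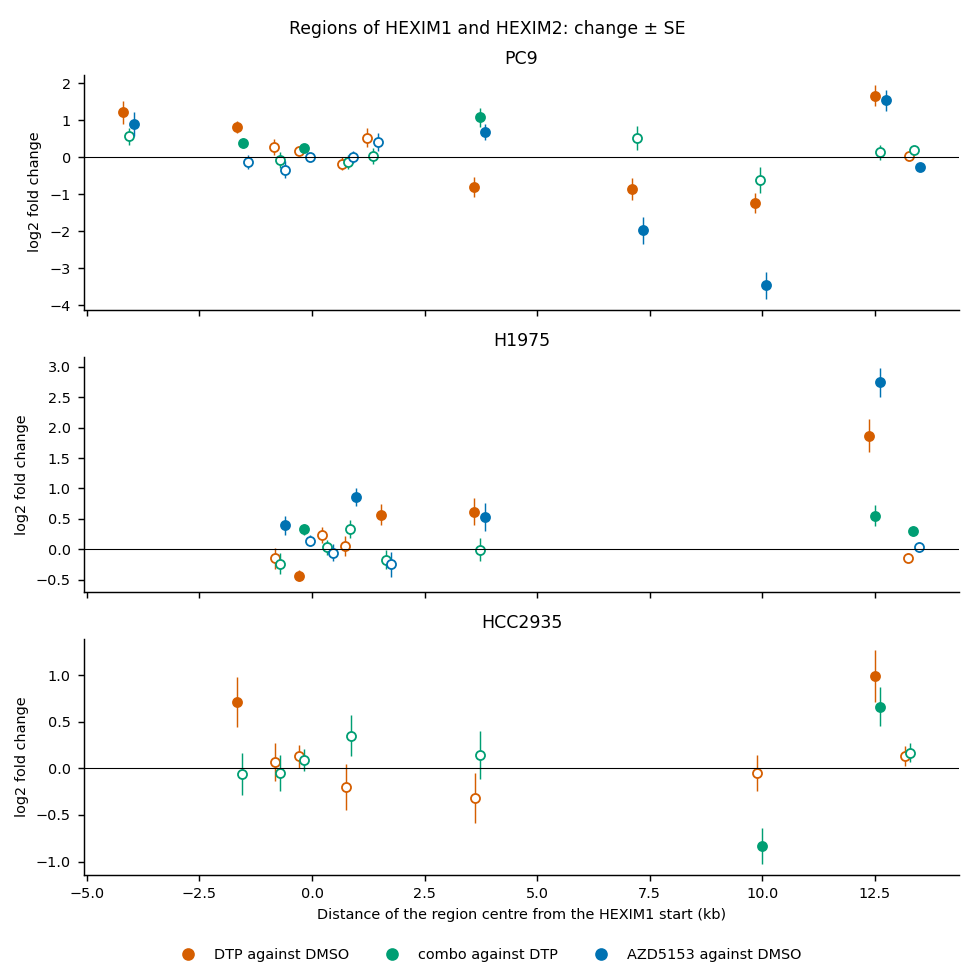
Log2 fold change ± SE (vertical axis, with its own scale in each panel) of the regions of HEXIM1 and HEXIM2 against the distance of their centre from the HEXIM1 start in kb, for PC9, H1975 and HCC2935, with filled points called at an adjusted p under 0.05 and the comparisons drawn slightly side by side. The HEXIM1 start at -0.17 kb stays between -0.44 and 0.33, while in PC9 the regions at 7.22 and 9.95 kb reach -1.97 and -3.46 with AZD5153 alone and the region at 12.6 kb rises by 1.54.

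LARP7, the protein that holds the 7SK complex together, shares its promoter with ZGRF1. The LARP7 start region (chr4:112636794-112637295 in PC9) was at 22.9, 27.4 and 24.8 CPM in PC9 DMSO and at 17, 20.4 and 20.9 with AZD5153 alone, lower in all libraries (-0.37 ± 0.125, adjusted p = 0.0158). Without DMSO replicate 2 or AZD5153 replicate 1 this call was lost (adjusted p = 0.143 and 0.173), as it was with libraries summed (0.303), DESeq2 (0.103) and no filter (0.336). DTP and combo libraries of PC9 were not called. In H1975, DTP (11, 12.9 and 12.1) lay below DMSO (16.4, 15.2 and 14.3) by -0.34 ± 0.118 (adjusted p = 0.0105). That call was lost with library size only (-0.14, adjusted p = 0.293), libraries summed (0.221), DESeq2 (0.0625) and no filter (0.058), and without DMSO replicate 1 (0.0721) or DTP replicate 1 (0.0878).

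Far from the gene, a LARP7-assigned region 70633 bases from the start in PC9 (chr4:112725996-112726497) moved in persisters. By RefSeq it lies inside ANK2, which begins between LARP7 and this place. PC9 had 16.5, 11.4 and 10.2 CPM in DMSO, 19.7, 29.1 and 24.3 in DTP, 9.09, 11.1 and 11.3 with AZD5153 alone and 22.4, 25.2 and 26.9 in combo. The persister rise was 0.97 ± 0.145 (adjusted p = 1.36e-09), and AZD5153 changed it neither alone (-0.24 ± 0.175, adjusted p = 0.337) nor after osimertinib (0.03 ± 0.120, adjusted p = 0.890) by a margin that passed the test. In HCC2935 it rose in DTP from 6.12, 6.50 and 3.44 to 19.8, 16.4 and 16.2 CPM (1.67 ± 0.222, adjusted p = 5.86e-08; 1.19 with stretch medians removed, adjusted p = 3.71e-05). The combo libraries of HCC2935 were back at 7.06, 9.37 and 6.44, all below DTP (-1.17 ± 0.189, adjusted p = 3.34e-05), and this call held in all 14 alternatives. A further region, 80236 bases from the start, fell in PC9 DTP cells from 5.40, 3.80 and 4.71 to 1.94, 0.773 and 1.5 CPM (-1.67 ± 0.375, adjusted p = 9.44e-05). No combo library had a deposited peak there, but the combo libraries, at 0.976, 0.795 and 0.266 CPM, overlapped DTP and were not called against it.

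CDK9, the kinase of P-TEFb, had one of the weaker start regions of the members, with group means of 10.0 to 16.6 CPM. In each line this start region ended before CDK9 begins by RefSeq, and lay at a transcript start in the authors' annotation. It was called once: in HCC2935, DTP libraries at 15.8, 16.0 and 16.4 lay above DMSO at 10.7, 12.7 and 7.51 (0.63 ± 0.184, adjusted p = 0.00589). The median of its 10 Mb stretch was 0.22 in that comparison. The call was lost with stretch medians removed (0.41, adjusted p = 0.0943) and without DMSO replicate 3 (0.45, adjusted p = 0.064). A second CDK9 region inside the gene rose in PC9 DTP cells from 3.81, 5.32 and 4.71 to 7.05, 8.77 and 6.76 CPM (0.68 ± 0.245, adjusted p = 0.0219, 0.18 with libraries summed). The like region of H1975 was higher with AZD5153 alone, at 8.26, 8.88 and 9.92 against 6.49, 6.73 and 6.61 (0.45 ± 0.159, adjusted p = 0.00936), and 0.14 (adjusted p = 0.466) was left with stretch medians removed.

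CCNT1 encodes cyclin T1, the main partner of CDK9. Its start region (chr12:48716506-48717007 in PC9) was called higher in HCC2935 combo cells, at 33.1, 31.7 and 37.2 CPM against 23.9, 25.1 and 28.6 in DTP (0.39 ± 0.123, adjusted p = 0.0393). Leaving out DTP replicate 1 or 2 or combo replicate 1 or 3 lost the call (adjusted p = 0.0502 to 0.152), as did libraries summed (0.319), DESeq2 (0.138), no filter (0.229) and stretch medians removed (0.0992). In PC9, combo (37.6, 42.7 and 42.6) against DTP (33.5, 38.4 and 32) gave 0.24 ± 0.097 (adjusted p = 0.0573). H1975 with AZD5153 alone (37.4, 31.4 and 33.1 against 31.9, 31.3 and 25.9) was called at 0.20 ± 0.086 (adjusted p = 0.0327), and fell to 0.06 (adjusted p = 0.611) without DMSO replicate 3. The call was also lost without DMSO replicate 1 (0.071), DMSO replicate 2 (0.0865) or AZD5153 replicate 1 (0.230).

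CCNT2 encodes cyclin T2. In PC9 the strong region that the authors' annotation assigns to its start (chr2:134918167-134918668) had 44.2, 52.7 and 51.8 CPM in DMSO and was not called in any comparison. By RefSeq this region overlaps the antisense gene CCNT2-AS1 and ends before CCNT2 begins. In H1975 the promoter region that carried the CCNT2 symbol was a much weaker one just inside the gene (chr2:134918919-134919420). It rose from 2.94, 2.02 and 3.37 CPM in DMSO to 4.86, 4.08 and 3.81 in DTP (0.61 ± 0.229, adjusted p = 0.019) and to 7.48, 6.10 and 7.76 with AZD5153 alone (1.38 ± 0.208, adjusted p = 1.34e-09), while its 10 Mb stretch had a median of -0.49 with AZD5153 alone. The combo libraries, at 6.82, 5.98 and 6.08, lay above DTP (0.57 ± 0.181, adjusted p = 0.0134). This call was lost with DESeq2, with libraries summed and without DTP replicate 3 (0.0784) or combo replicate 1 (0.0774). The persister call was lost with libraries summed and without DMSO replicate 2 (0.40, adjusted p = 0.199) or DTP replicate 1 (0.0748). The matching region of PC9 had 3.18, 2.79 and 4.22 CPM in DMSO and 4.79, 5.33 and 4.69 with AZD5153 alone (0.53 ± 0.290, adjusted p = 0.178). In HCC2935 a CCNT2 region at a distance of -10601 bases from its assigned transcript start rose in DTP from 1.31, 3.84 and 1.56 to 4.37, 5.46 and 5.53 CPM (1.24 ± 0.348, adjusted p = 0.00436). The combo libraries, at 2.6, 2.59 and 3.82 CPM, were not called against DTP. No combo library had a deposited peak there, and 1 of 3 in DMSO did.

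Among the start regions of H1975, SERPINI1 had the clearest opposition between AZD5153 alone and AZD5153 after osimertinib. The difference between both effects was not called with stretch medians removed (0.21, adjusted p = 0.187). In H1975 the SERPINI1 start region (chr3:167735472-167735973) held 32.8, 30.7 and 31.1 CPM in DMSO, 34.0, 39.7 and 36.0 in DTP, 25.4, 22.3 and 21.2 with AZD5153 alone and 43.7, 44.1 and 43.7 in combo. AZD5153 alone thus lay under all DMSO libraries (-0.46 ± 0.091, adjusted p = 4.12e-06), and combo lay above all DTP libraries (0.26 ± 0.073, adjusted p = 0.00482). The 10 Mb stretch around it had a median change of -0.62 with AZD5153 alone. With stretch medians removed the change was 0.14 (adjusted p = 0.236), so the direction was that of the surrounding stretch. The persister rise (0.22 ± 0.080, adjusted p = 0.015) went with a stretch median of 0.27 and was 0.01 (adjusted p = 0.952) after removal, and the combo rise was 0.35 (adjusted p = 0.00055). Both the persister call and the combo call were lost with libraries summed. The persister call was also lost without DMSO replicate 2 (0.0943) or DTP replicate 2 (0.147), and the combo call without DTP replicate 1 (0.0958).

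In PC9 the SERPINI1 start region had 39.1, 37.8 and 36.5 CPM in DMSO and 29.7, 29.2 and 24.2 with AZD5153 alone (-0.44 ± 0.104, adjusted p = 0.000233), all libraries lower. Here the stretch median was -0.15 and a change of -0.27 (adjusted p = 0.0442) was left after its removal. With libraries summed the adjusted p was 0.136. Combo (34.4, 38.4 and 31.2) and DTP (30.4, 39.2 and 29.5) overlapped. The same promoter read from the PDCD10 side changed by -0.23 ± 0.066 (adjusted p = 0.00144) with AZD5153 alone in H1975 and was not called in that comparison in PC9. A SERPINI1 intron region 5213 bases inside the gene fell stepwise in PC9, from 5.72, 6.59 and 5.21 CPM in DMSO through 3.65, 3.35 and 3.25 in DTP to 0.244, 1.33 and 0.533 in combo. AZD5153 alone gave 3.35, 3.25 and 3.52 (-0.79 ± 0.280, adjusted p = 0.0237). Combo had 8 reads there in all, against 41 in DTP (-2.26 ± 0.472, adjusted p = 5.17e-05). HCC827 and HCC2935 had no SERPINI1 call, at group means of 18 to 27.5 CPM.

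HCC827 gave no call for any of its 9 regions. In DTP against DMSO, 0.0158% of 82309 tested regions were called higher and 0.00607% lower, and in combo against DTP 0.0% either way. With the replicate number as a block, which paired the libraries of this line, 3.88% and 0.0304% of all regions were called and still none of the 9. No member had an unadjusted p under 0.05 in edgeR in either comparison, where 6137 and 2164 of all regions did, and DESeq2 called 398 and 0 regions, none of them a member. The 7 start regions changed by -0.43 to 0.27 in DTP and -0.18 to 0.24 in combo, with SE of 0.289 to 0.364.

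The design allows 1 further test in PC9 and H1975: whether AZD5153 had a different effect on persisters than on untreated cells (the change from DTP to combo minus that from DMSO to AZD5153). In PC9 this interaction was called higher in 6 and lower in 2 of 28 regions (7.32% and 6.46% of all regions; 2 with libraries summed against 3.77%). In H1975 it was higher in 2 and lower in 8 of 21 (24.4% and 18.2%; 3 with libraries summed against 24.5%). The members with the highest interaction were the PC9 regions 9.95 and 7.22 kb from the HEXIM1 start, at 2.86 ± 0.571 (adjusted p = 3.27e-05) and 2.49 ± 0.483 (adjusted p = 1.6e-05), and these were the 2 that were called with libraries summed in PC9. With library size only the H1975 split was 1 higher and 15 lower, a scaling that moved the median over all H1975 regions by -0.32. With stretch medians removed, 5 of the 10 H1975 calls of the main fit were kept. At the HEXIM2 upstream region the interaction was -1.39 ± 0.355 in PC9 (adjusted p = 0.00183) and -2.20 ± 0.315 in H1975 (adjusted p = 3.96e-10). At the intragenic BRD3 region it had opposite signs, 1.01 ± 0.250 in PC9 (adjusted p = 0.00133) and -1.99 ± 0.179 in H1975 (adjusted p = 1.31e-21), the latter -1.31 with stretch medians removed (adjusted p = 3.50e-09). For the HEXIM1 start it was 0.24 ± 0.136 in PC9 (adjusted p = 0.270) and 0.19 ± 0.126 in H1975 (adjusted p = 0.232). Both were positive and neither passed the test.

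**Figure D5:**
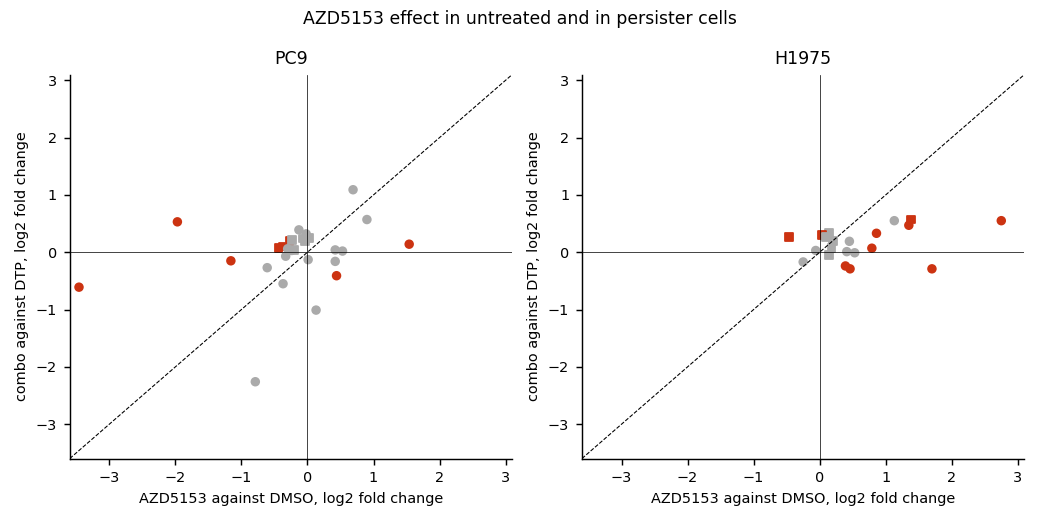
Each point is a region of the 8 genes, with its log2 fold change with AZD5153 alone against DMSO on the horizontal axis and in combo against DTP on the vertical axis, for PC9 and H1975. Squares are start regions, red points were called in the test of the difference between both changes, and the dashed line marks equal changes. The HEXIM2 upstream region of H1975 lies at 2.75 on the horizontal and 0.55 on the vertical axis.

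The pattern of the HEXIM1 start region over the 14 group means, each centred on its line, was most like that of TOP2A, with Pearson's r = 0.990, NFATC2IP (0.972) and CKS1B (0.965), out of 9897 genes with a start region in all lines. Of the members, LARP7 had r = 0.803 (rank 577), CCNT1 0.781, BRD3 0.714, HEXIM2 0.693, CDK9 0.620 and SERPINI1 -0.44 (rank 9298). These are descriptions over 14 points that share libraries within a line, and no test was made.

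Beyond the members, 35 genes of transcription elongation were read at their start regions: subunits of the super elongation complex, the pausing factors NELF and DSIF, the PAF complex, the other transcriptional CDKs, 7SK capping, BET partner proteins and PDCD10. In PC9, 3 of 30 measured rose and 2 fell in DTP (15.4% and 16.4% of all regions), 6 rose and 1 fell in combo against DTP (10.6% and 11.7%), and 2 rose and 8 fell with AZD5153 alone (11.2% and 14.6%). With libraries summed only 0, 1 and 1 of these genes were called (16.8%, 6.18% and 12% of all). In H1975 the counts of 33 were 6 and 7 in DTP (24.9% and 27.0%), 13 and 1 in combo (11.5% and 9.48%), and 16 and 6 with AZD5153 alone (26.7% and 31.4%), and with libraries summed 2, 1 and 15 in all (33.6%, 2.44% and 41.7%). In HCC2935, of 30, they were 8 and 2 in DTP (18.7% and 18.6%) and 4 and 0 in combo (1.9% and 6.4%), with 5 and 0 when libraries were summed (28.2% and 3.54%). In HCC827 none of 25 was called by edgeR. The summed counts of this list were chosen after seeing the data. Median changes over the list were 0.01, 0.14 and -0.06 in PC9, -0.01, 0.20 and 0.27 in H1975, and 0.23 and 0.19 in HCC2935.

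ZMYND8, which encodes a bromodomain and zinc finger reader, had the highest interaction of the list in both lines. Its start region fell with AZD5153 alone (-0.60 ± 0.117 in PC9 and -0.71 ± 0.117 in H1975) and rose in combo against DTP (0.58 ± 0.086 and 0.84 ± 0.088), which gave interactions of 1.18 ± 0.145 (adjusted p = 7.64e-13) and 1.55 ± 0.146 (adjusted p = 2.84e-20). It also rose in DTP in PC9 (0.35 ± 0.102) and HCC2935 (0.68 ± 0.132). ELL, an elongation factor of the super elongation complex, rose most with AZD5153 alone in H1975 (1.12 ± 0.066, adjusted p = 3.48e-41) and fell slightly in PC9 (-0.20 ± 0.067, adjusted p = 0.0156). SUPT6H, a histone chaperone that travels with polymerase, fell by 1.65 on the log2 scale in H1975 with AZD5153 alone (SE 0.236, adjusted p = 1.90e-10). MEPCE, the capping enzyme of 7SK, was called only in H1975 DTP cells among the 12 comparisons of these lines (-0.28 ± 0.086, adjusted p = 0.00366). Stretch medians were not set beside the changes of this list. Whether these changes, such as those of H1975 with AZD5153 alone, follow the stretches around them was not tested.

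The authors' peak calls, made in each library by itself, gave a second view of the same sites. The start regions of the 8 genes overlapped a peak in 96 of 96 combinations of region and library in PC9, 96 of 96 in H1975, 63 of 63 in HCC2935 and 60 of 63 in HCC827. For the other regions this was 213 of 240, 153 of 156, 129 of 144 and 13 of 18. The HEXIM2 region 9.95 kb from HEXIM1 had a peak in all 3 DMSO libraries of PC9, 2 of 3 in DTP, and 1 of 3 each with AZD5153 alone and in combo.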

How the data were processed

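ATAC-seq libraries of 4 cell lines were analysed, 3 per group. Per the submitters' processing notes, the tools were BWA 0.7.17, SAMtools 1.9, deepTools 3.4, MACS2 2.2.6, featureCounts 2.0.0 and ChIPseeker 1.29.1 with hg38. What each tool was used for is not stated there, and the extract protocol in the labels describes an H3K27ac assay while titles and design say ATAC-seq. The authors deposited, for each line, raw counts of reads per region and library, an annotated region table, and per-library peak lists whose −log10 q values the authors' caller gave. Counts were fitted as deposited.

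Each line was fitted by itself with all its groups in R 4.3.3 with edgeR 4.0.16 (TMM, filterByExpr, quasi-likelihood F test, Benjamini-Hochberg adjustment over all tested regions), and the SE is the log2 fold change over the square root of F. DESeq2 1.42.0 was an alternative. The procedure was tested on simulated counts. Stretches are bins of 10 Mb with at least 50 regions. Regions named were every start region (the promoter region of a gene with the highest mean count) and, per comparison and direction, the called region with the largest change whose groups did not overlap and whose level was above the median, and further regions were named to describe how those of a gene differ. The members, lists and tests were chosen with earlier results of these data known. Replicate numbers paired the libraries in HCC827 (correlations of same-numbered deviations 0.257 to 0.827, 9 of 9 above 0.1) but not in PC9 or H1975 (0 of 18 in each). In HCC2935, 2 of 9 pairs were above 0.1, the highest at 0.206. These statements follow from the data, as the labels do not say what a number marks.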

Additional observations from a re-analysis of the deposited data

Results flagged for a closer look

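The change from DTP to combo minus the change from DMSO to AZD5153 passed edgeR's test of the difference at 18 member regions, 8 in PC9 and 10 in H1975. In PC9 it was -1.39 at the HEXIM2 upstream region, 0.46 at the HEXIM2 start, 0.52 at the SERPINI1 start, 0.47 at the LARP7 start, 1.01 at the intragenic BRD3 region, -0.85 at the BRD3 region 1845 bases inside the gene, and 2.86 and 2.49 at the HEXIM2 regions 9.95 and 7.22 kb from the HEXIM1 start. In H1975 it was -2.20 at the HEXIM2 upstream region, 0.26 at the HEXIM2 start, -0.81 at the CCNT2 region, 0.71 at the SERPINI1 start, -1.99 at the intragenic BRD3 region, -0.88, -0.72 and -0.75 at the BRD3 regions at 134067252, 134068346 and 134099073, and -0.62 and -0.53 at the HEXIM1 regions at 45147512 and 45149076. With libraries summed, 5 of the 18 were still called: the HEXIM2 upstream, SERPINI1 and intragenic BRD3 regions of H1975 (adjusted p = 7.09e-05, 0.0203 and 1.1e-08) and the HEXIM2 regions of PC9 at 9.95 and 7.22 kb (0.00293 and 0.0043). For the other 13 the adjusted p was between 0.0838 and 0.517. With stretch medians removed, the 3 last-named BRD3 regions of H1975 were at -0.20, -0.04 and -0.07 (adjusted p = 0.674, 0.909 and 0.849). The SERPINI1 difference of H1975 was 0.21 (adjusted p = 0.187) with stretch medians removed. Leaving out DMSO replicate 2 lost the call at CCNT2 in H1975 (-0.56, adjusted p = 0.143) and leaving out AZD5153 replicate 3 that at SERPINI1 in PC9 (0.42, adjusted p = 0.0542).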

How the results depend on the processing

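Counts of called members in PC9 went from 11 to 7 with DESeq2 and to 7 with libraries summed in DTP against DMSO, from 4 to 2 and 2 in combo against DTP, from 11 to 6 without a filter, 5 with DESeq2 and 4 summed with AZD5153 alone, and from 8 to 4, 5 and 2 for the difference of the AZD5153 effect. In H1975 they went from 12 to 7 with DESeq2 and 4 summed in DTP, from 7 to 2 and 0 in combo, from 13 to 8 without a filter and 8 summed with AZD5153 alone, and from 10 to 16 with library size only, 4 without a filter, 5 with DESeq2 and 3 summed for the difference. In HCC2935 they went from 8 to 5 with stretch medians removed in DTP, and from 4 to 2 without a filter, 2 with DESeq2 and 1 summed in combo. For the elongation list, summed libraries, an alternative chosen after seeing the data, took the calls from 5 to 0, 7 to 1, 10 to 1 and 7 to 1 in PC9 (DTP, combo, AZD5153, difference), from 13 to 2, 14 to 1 and 13 to 5 in H1975 (DTP, combo, difference), and from 10 to 5 and 4 to 0 in HCC2935. Leaving out 1 library gave 9 to 10, 2 to 5, 6 to 11 and 6 to 8 calls in PC9 (DTP, combo, AZD5153, difference), 8 to 13, 2 to 6, 8 to 13 and 5 to 10 in H1975, 5 to 8 and 2 to 3 in HCC2935, and 0 in HCC827. The lowest came, in the same order, without DMSO replicate 3, DTP replicate 3, AZD5153 replicate 1 and DMSO replicate 2 in PC9, DMSO replicate 2, combo replicate 1, DMSO replicate 3 and DMSO replicate 2 in H1975, and DMSO replicate 1 and DTP replicate 1 in HCC2935. Signs turned with stretch medians removed at SERPINI1 (0.14) and the BRD3 start (-0.43, difference 0.58) in H1975, and with library size only for the HEXIM2 start difference in H1975 (-0.06). Library size only gave higher and lower splits of 4 and 2 (combo) and 1 and 15 (difference) in H1975 and 5 and 3 (difference) in PC9. With stretch medians removed they were 6 and 0 in H1975 combo and 1 and 2 in HCC2935 combo. With the replicate number as a block, calls were 11, 4, 11 and 7 in PC9, 12, 7, 13 and 9 in H1975, 8 and 4 in HCC2935 and 0 and 0 in HCC827. In PC9 and H1975 none of 18 same-numbered pairs deviated together. The cause of these changes was not tested. Summed libraries leave 1 sample a group, so that fit assumes a spread taken from HCC2935 and was not run for HCC827.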
